A study of Mus musculus with 6 samples.

Results

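Amino acid transporter families were examined in the established human colorectal carcinoma line HCT116 by bulk RNA sequencing of a parental form and an oxaliplatin-resistant form. The drug, a platinum compound, damages DNA and is given in this disease. The members were the genes whose symbol belongs to the solute carrier (SLC) families SLC1, SLC3, SLC6, SLC7, SLC36, SLC38 and SLC43. They were 53 of 31456 rows of the deposited count table. Each form had 3 libraries, and neither the way the resistant cells were derived nor any drug exposure at harvest is given in the labels. The labels name the organism as mouse, whereas 30616 rows of the tables, the members among them, carry human gene identifiers.

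Amino acids cross membranes on carriers that differ in substrate and in driving force. SLC7A11 exchanges cystine for glutamate and feeds glutathione synthesis, and it works only as a pair with the heavy chain SLC3A2, also called 4F2hc or CD98. SLC3A2 carries several other light chains of the SLC7 family to the cell surface, among them the leucine carrier SLC7A5. Glutamine enters tumour cells mainly through SLC1A5 and the sodium-coupled carriers of the SLC38 family, while members of SLC36 and SLC38 on lysosomes take part in amino acid sensing. The SLC6 family holds carriers of taurine, creatine, glycine, proline and neurotransmitters, so not every member is an amino acid carrier.

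The total count was 20246878 to 32138423 in the parental and 24039045 to 28432096 in the resistant libraries. Levels are given as CPM, counts scaled by library size and TMM normalisation factors, at which 3 counts correspond to 0.0975 to 0.153 CPM. Such floors cover counting error only. Parental replicate 2 stood apart from the other parental libraries on the second principal component, which held 10.8% of the variance. The epithelial markers EPCAM, CDH1, KRT8, KRT18 and KRT19 and the intestinal factor CDX2 had at least 1 CPM in every library, whereas VIL1 and CDX1 had 10 counts and 1 count in all. Of the 6 fibroblast markers COL1A1 rose 1.71-fold (edgeR adjusted p = 3.3e-06). PDGFRB, which passed the filter on low counts through its resistant libraries alone, had 2 to 6 counts in the parental and 13 to 17 in the resistant libraries (edgeR adjusted p = 0.0026). COL3A1 had 0 to 1 and 5 to 11 counts, while COL1A2, DCN and LUM had 3, 1 and 2 counts in all. The endothelial markers VWF and CDH5 had 145 counts and 1 count in all. The summed level of the 6 fibroblast markers was 22.5 to 26.1 CPM in parental and 39.3 to 44.9 CPM in resistant libraries, that of 5 immune markers 12.4 to 13.0 CPM and 15.6 to 18.3 CPM, nearly all of it COL1A1 and CD68, and their part in the results was not tested. The labels do not say whether the libraries of a form were grown apart, and p-values reflect only how these libraries spread. In bulk RNA fewer cells of a kind and less RNA per cell cannot be told apart.

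Of the 53 members 36 had a total of 30 or more counts over the 6 libraries, the limit for comparison. Those just inside the limit were SLC7A7 with 32 counts and SLC6A12 with 34, and those just outside were SLC3A1 with 12 and SLC7A10 with 11. The filter on low counts left 32 members for the test against 16605 genes in all. In resistant against parental cells 12 of these 32 members were higher and 9 lower at the threshold of 0.05 on the adjusted p (edgeR quasi-likelihood), which is 65.6% of them against 53.8% of all tested genes. Without the normalisation factors 65.35% of all called genes were higher, against 50.76% with them, and the members then counted 12 higher and 8 lower. A change of at least 2-fold was called for 7 tested members, 5 higher and 2 lower, which is 21.9% of them against 8.15% of all tested genes (5.58% higher and 2.57% lower). SLC7A9 passed the filter on low counts through its resistant libraries alone, so its place among the tested members depended on the group in which it was high. Without SLC7A9, 11 of 31 tested members were higher and 9 lower (64.5%), and 4 were at least 2-fold higher and 2 at least 2-fold lower (19.4%). The CPM of the groups did not overlap for 22 of the 32, against 61.2% of all tested genes. The median log2 fold change of the tested members was -0.01 and that of all tested genes 0.02.

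The members thus moved in both directions. At least 2-fold higher were SLC1A3 and SLC1A4, carriers of glutamate and of small neutral amino acids, SLC6A6 and SLC6A9, carriers of taurine and glycine, and the scarce SLC7A9. The glutamine carrier SLC38A2 and the proline carrier SLC6A20 were at least 2-fold lower. The abundant carriers SLC7A5, SLC1A5 and SLC7A1 did not pass the threshold.

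**Figure D1:**
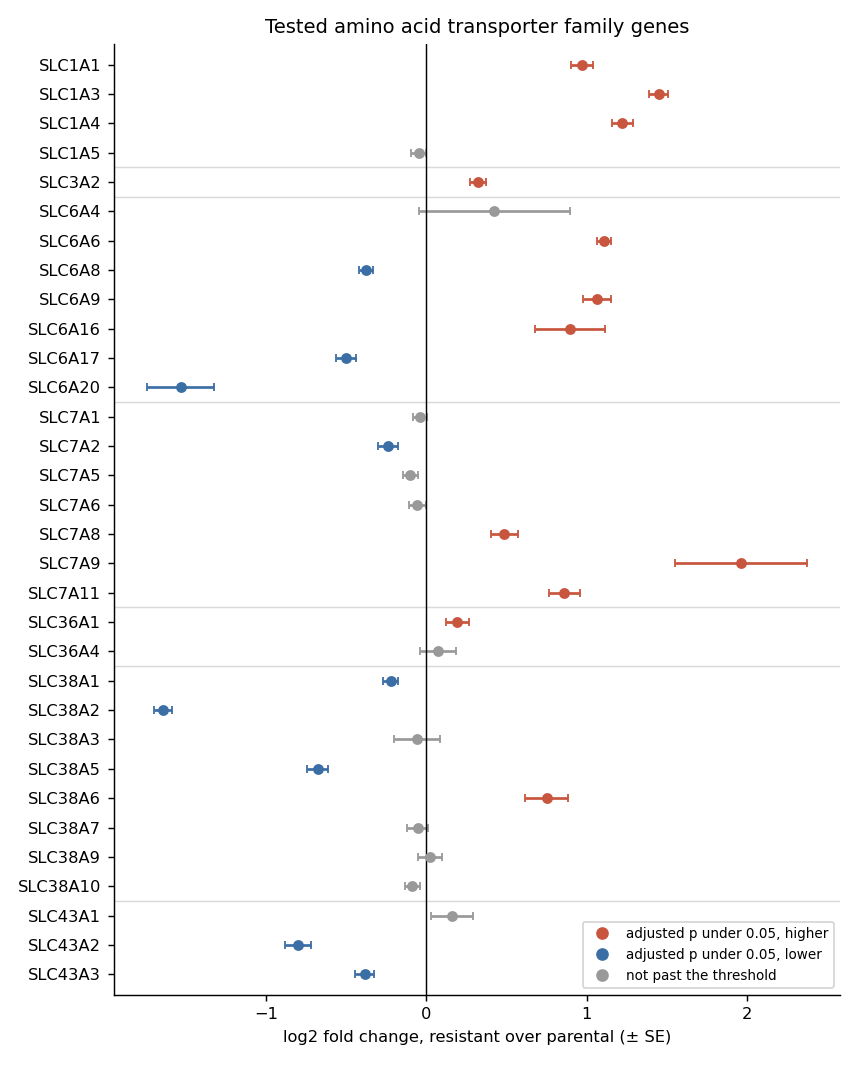
Log2 fold change (resistant over parental, with its standard error from edgeR) of the 32 tested members, grouped by family. Red points passed the threshold as higher, blue points as lower and grey points did not pass. Among the 31 members other than SLC7A9, which passed the filter through its resistant libraries alone, the largest rise was that of SLC1A3 at 1.45 and the largest fall that of SLC38A2 at -1.64.

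Among the members listed as cystine and cysteine carriers SLC7A11, its heavy chain SLC3A2 and SLC1A1 rose in the resistant cells. Over all tested genes 27.3% were higher. The list was not complete for cysteine. It left out the neutral amino acid carriers SLC1A4, SLC1A5, SLC38A1 and SLC38A2, with log2 fold changes of 1.22, -0.05, -0.22 and -1.64. The scarce SLC7A9 was tested only because of its resistant libraries, and its partner SLC3A1 was not tested. Outside these families the lysosomal cystine exporter CTNS and the lysosomal cysteine importer MFSD12 did not pass the threshold, with log2 fold changes of 0.033 and 0.0055 (edgeR adjusted p = 0.79 and 0.92). SLC7A11 (ENSG00000151012.13), the cystine and glutamate exchanger xCT, had 169, 132 and 166 CPM in parental and 283, 262 and 301 CPM in resistant libraries. Every resistant library lay above every parental one, and parental replicate 2 was the lowest of all. The level rose 1.82-fold, from 156 ± 20.7 CPM to 282 ± 19.8 CPM (SD, n = 3), with a log2 fold change of 0.86 ± 0.10 (SE) and an edgeR adjusted p of 1.2e-04. An antisense gene, SLC7A11-AS1, had 15 to 48 counts per library, at most 0.755% of the SLC7A11 count. The strand setting of the counting is not given, so reads of the pair cannot be told apart.

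SLC3A2 (ENSG00000168003.16), the heavy chain, had 319, 347 and 319 CPM in parental and 423, 405 and 402 CPM in resistant libraries. The groups did not overlap, and the step between them was smaller than that of SLC7A11. Its mean rose 1.25-fold, from 328 ± 16.4 CPM to 410 ± 11.8 CPM (SD, n = 3; edgeR adjusted p = 1.5e-04, log2 fold change 0.32 with an SE of 0.05). SLC1A1 (ENSG00000106688.12), a sodium-coupled carrier of glutamate that also takes up cysteine, had 17.6, 18.01 and 17.9 CPM in parental and 36.9, 31.9 and 36.1 CPM in resistant libraries. The parental libraries lay close together and all below the resistant ones. The rise was 1.96-fold, with a log2 fold change of 0.97 ± 0.07 (SE) and an edgeR adjusted p of 2.8e-07.

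SLC7A9 (ENSG00000021488.13), the cystine and dibasic amino acid carrier of kidney and gut, was scarce. It had 5, 2 and 4 counts in the parental and 14, 16 and 16 counts in the resistant libraries. At 0.152 ± 0.0759 CPM the parental mean lay near the floor, and the resistant mean was 0.575 ± 0.0365 CPM (SD, n = 3; edgeR adjusted p = 0.0017, log2 fold change 1.96 with an SE of 0.41). The SLC7A9 call was lost on the deposited FPKM values without a filter (limma adjusted p = 0.075, within 3.7e-04 to 0.075 over its alternatives), where the SLC7A9 change was 0.44 on the log2(FPKM + 1) scale. SLC3A1, the heavy chain that pairs with SLC7A9, had 0 to 4 counts per library.

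**Figure D2:**
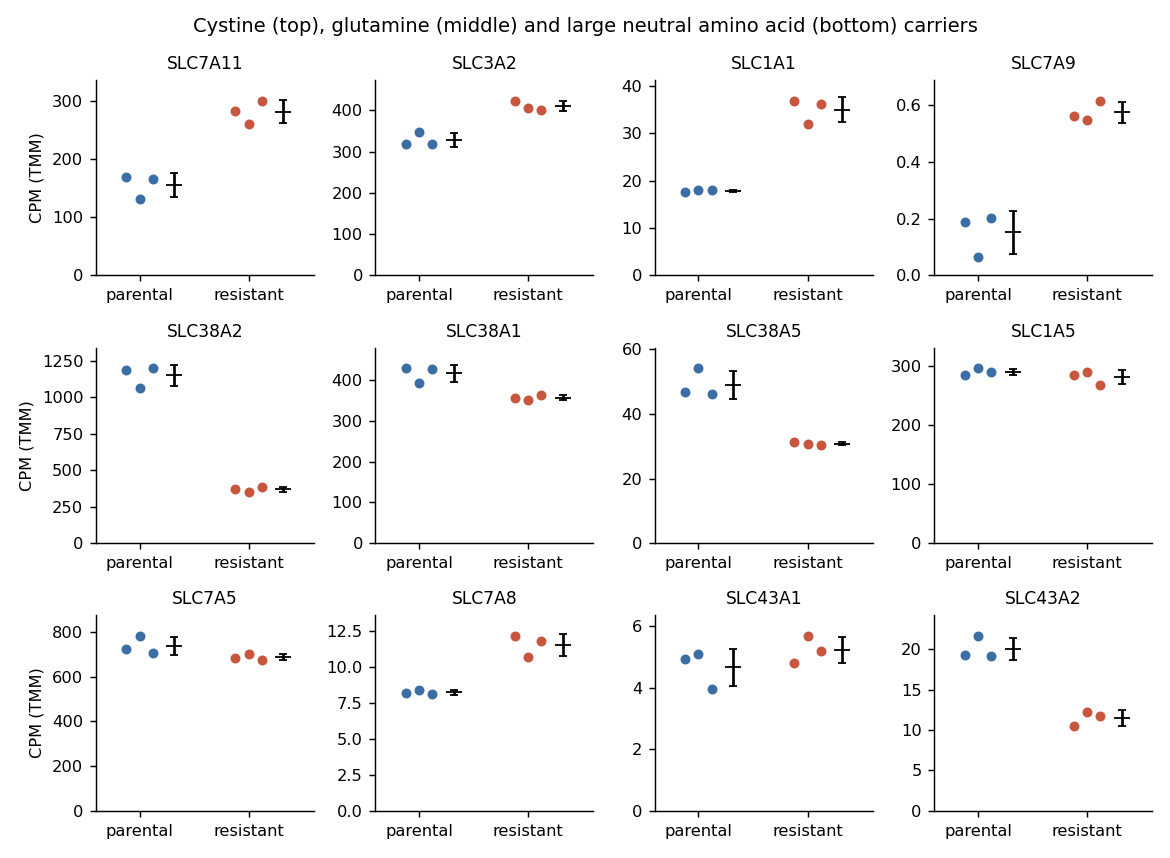
CPM of 12 carriers in each library, with the mean and SD (n = 3) in black beside the points; each axis starts at 0. The top row holds cystine and cysteine carriers, the middle row glutamine carriers and the bottom row large neutral amino acid carriers. SLC38A2 fell from between 1062 and 1196 CPM to between 348 and 387 CPM, while SLC1A5 stayed between 268 and 296 CPM in all libraries.

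Of 7 tested glutamine carriers 3 fell, SLC38A2, SLC38A5 and SLC38A1, none rose and 4 did not pass, with a median log2 fold change of -0.06. Over all tested genes 26.5% were lower and 53.8% were called in either direction, so the number of carriers called was not above the background. SLC38A2 (ENSG00000134294.14), the sodium-coupled carrier SNAT2 known to be induced when amino acids are scarce, had 1186, 1062 and 1196 CPM in parental and 368, 348 and 387 CPM in resistant libraries. No resistant library came near a parental one. The mean fell 3.12-fold, from 1148 ± 74.5 CPM to 368 ± 19.2 CPM (SD, n = 3), which left 32.02% of the parental level. On the log2 scale the change was -1.64 ± 0.06 (SE; edgeR adjusted p = 8.1e-10), and it lay between -1.70 and -1.55 under all 17 alternative settings. By fold change SLC38A2 ranked 180 in order of fall among all 16605 tested genes. Among the 2333 with a parental mean of at least 100 CPM it ranked 26. By CPM lost, 780 CPM, it ranked 15 among all tested genes.

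SLC38A5 (ENSG00000017483.15), the carrier SNAT5 of glutamine, asparagine, histidine and serine, had 46.8, 54.1 and 46.2 CPM in parental and 31.2, 30.6 and 30.3 CPM in resistant libraries. The resistant libraries were nearly equal to each other and lay below all parental ones. Its level fell (edgeR adjusted p = 5.5e-06, log2 fold change -0.68 with an SE of 0.07). SLC38A1 (ENSG00000111371.15), the carrier SNAT1, had 429, 394 and 429 CPM in parental and 356, 352 and 364 CPM in resistant libraries. The groups again did not overlap, and the fall of 1.17-fold was small beside that of SLC38A2 (edgeR adjusted p = 0.0016, log2 fold change -0.22 with an SE of 0.05).

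SLC1A5 (ENSG00000105281.12), the glutamine exchanger ASCT2, had 286, 296 and 291 CPM in parental and 285, 291 and 268 CPM in resistant libraries. The groups overlapped, and the log2 fold change of -0.05 ± 0.05 (SE) did not pass the threshold (edgeR adjusted p = 0.38). SLC38A7, the lysosomal glutamine carrier, had 17.3 ± 0.629 CPM and 16.7 ± 0.682 CPM in the parental and resistant libraries (SD, n = 3; edgeR adjusted p = 0.49). SLC38A3, the carrier SNAT3 of liver, kidney and brain, had 3.30 ± 0.403 CPM and 3.18 ± 0.257 CPM (edgeR adjusted p = 0.75). Neither gene separated the groups. SLC7A6, which exchanges arginine for glutamine as a light chain of SLC3A2, had 77.4 ± 5.16 CPM and 74.5 ± 1.30 CPM (edgeR adjusted p = 0.41). Its neighbour SLC7A6OS had up to 50.5% of the SLC7A6 count, and where reads of such neighbours overlap their division is uncertain. SLC7A7, the related light chain, had 0 to 9 counts per library, and SLC6A19, the intestinal neutral amino acid carrier, had 1 count in all.

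The makeup of the SLC38 family changed with SLC38A2. Levels of different genes were compared per length, on the normalised expression deposited by the authors and treated here as FPKM, a unit that corrects for gene length as well as depth. SLC38A2 took 64.7%, 61.8% and 63.5% of the summed FPKM of the family in the parental libraries, and 37.2%, 38.2% and 40.0% in the resistant libraries. The ratio of SLC38A2 to SLC38A1 FPKM was 4.78 to 4.88 in the parental and 1.73 to 1.81 in the resistant libraries. SLC38A2 thus had the highest FPKM of the family in both forms, by a narrower margin in the resistant one. Over all 53 members the summed FPKM was 1217 to 1236 in the parental and 1078 to 1108 in the resistant libraries. Without SLC38A2 the order of the groups turned, to 894 to 933 in the parental and 974 to 1010 in the resistant libraries.

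**Figure D3:**
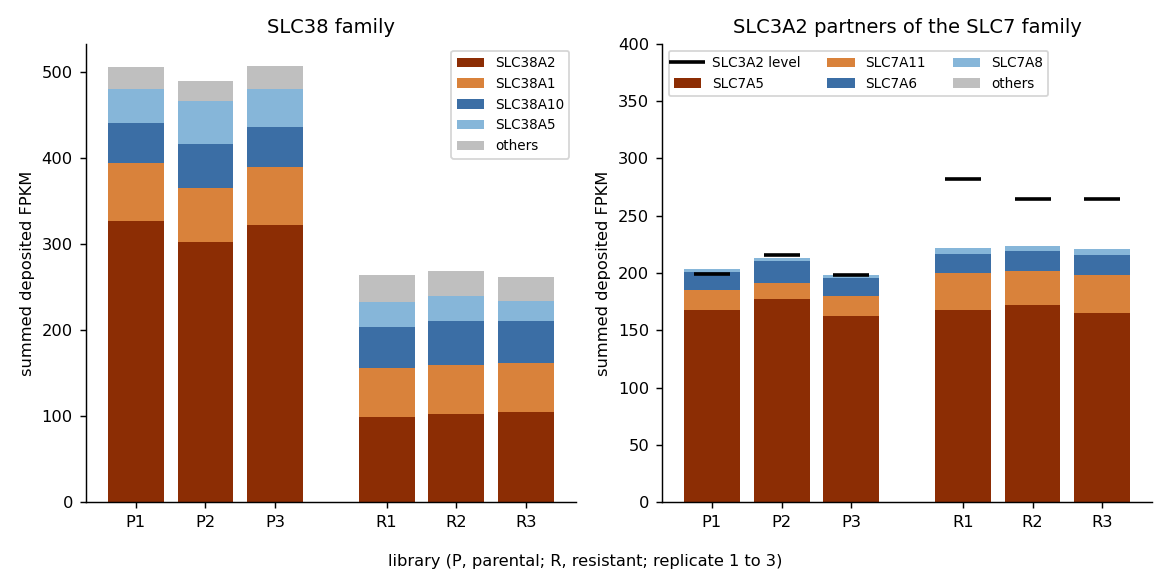
Summed deposited FPKM per library of the SLC38 family (left) and of the SLC7 light chains that pair with SLC3A2 (right), stacked by gene; black bars on the right give the FPKM of SLC3A2. The SLC38 sum fell from between 490 and 507 to between 261 and 268, and the black bars lay close to the tops of the stacks in the parental libraries and above them in the resistant ones.

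Of 5 tested large neutral amino acid carriers, SLC3A2 counted again, 2 rose, 1 fell and 2 did not pass, with a median log2 fold change of 0.16. That count is near the 53.8% called over all tested genes. SLC7A5 (ENSG00000103257.9), the leucine carrier LAT1, had 724, 780 and 705 CPM in parental and 684, 701 and 676 CPM in resistant libraries. All resistant libraries lay below the parental ones, by less than the spread of the parental group at the closest pair. The log2 fold change of -0.10 ± 0.05 (SE) did not pass the threshold (edgeR adjusted p = 0.096), and it did with the replicate number as a block (edgeR adjusted p = 0.029 with its alternatives between 0.029 and 0.95). The processed copies SLC7A5P1 and SLC7A5P2 had 0 to 17 counts per library, under 0.1% of the SLC7A5 count.

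SLC7A8 (ENSG00000092068.20), the related light chain LAT2, had 8.19, 8.42 and 8.10 CPM in parental and 12.1, 10.7 and 11.8 CPM in resistant libraries. It rose 1.40-fold without overlap of the groups (edgeR adjusted p = 5.0e-04, log2 fold change 0.48 with an SE of 0.08). SLC43A2 (ENSG00000167703.14), the carrier LAT4 that needs no heavy chain, had 19.2, 21.6 and 19.2 CPM in parental and 10.4, 12.3 and 11.8 CPM in resistant libraries. Its fall was 1.74-fold, again without overlap (edgeR adjusted p = 6.4e-06, log2 fold change -0.80 with an SE of 0.08). SLC43A1, the carrier LAT3, had 4.67 ± 0.609 CPM and 5.23 ± 0.429 CPM (SD, n = 3), with overlapping groups and an edgeR adjusted p of 0.33.

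The light chains of SLC3A2 were also set against their heavy chain per length. The summed FPKM of SLC7A5, SLC7A6, SLC7A7, SLC7A8, SLC7A10 and SLC7A11 was 1.02, 0.988 and 1.002 times the FPKM of SLC3A2 in parental replicates 1, 2 and 3. It was 0.788, 0.846 and 0.833 times in resistant replicates 1, 2 and 3. SLC7A5 held 81.7% to 83.1% of the light chain sum in the parental and 74.8% to 76.8% in the resistant libraries. SLC7A11 held 6.51% to 8.85% in the parental and 13.1% to 15.2% in the resistant libraries. The heavy chain was therefore at the level of its summed partners in the parental libraries and above it in the resistant ones, and the share of SLC7A11 among the partners was larger in each resistant library. These ratios are of mRNA and give no count of proteins or of assembled carriers.

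Of the SLC1 family, 3 of the 4 tested genes rose and none fell, against 27.3% higher and 26.5% lower over all tested genes. SLC1A3 (ENSG00000079215.14), the glutamate and aspartate carrier EAAT1, had 13.1, 12.5 and 11.9 CPM in parental and 33.4, 34.4 and 34.6 CPM in resistant libraries. SLC1A4 (ENSG00000115902.11), the carrier ASCT1 of alanine, serine and cysteine, had 13.6, 13.5 and 12.1 CPM in parental and 30.7, 31.5 and 29.7 CPM in resistant libraries. Both lay wholly above the parental range. The rises were 2.73-fold for SLC1A3 (edgeR adjusted p = 3.5e-09, log2 fold change 1.45 with an SE of 0.06) and 2.33-fold for SLC1A4 (edgeR adjusted p = 2.7e-08, log2 fold change 1.22 with an SE of 0.07), beside SLC1A1 above. Per length SLC1A5 remained the main member, with 90.1% to 90.6% of the family's summed FPKM in the parental and 79.5% to 80.6% in the resistant libraries. SLC1A2, the glutamate carrier EAAT2 of astrocytes, had 4 to 7 counts in the parental and 8 to 17 in the resistant libraries. It missed the filter of the main test. In the alternative fit on genes with a total count of 30 or more its log2 fold change was 1.03 with an SE of 0.44 (edgeR adjusted p = 0.073). SLC7A7, SLC6A12 and SLC6A13, which missed the main filter too, had edgeR adjusted p-values of 0.41, 0.87 and 0.76 there.

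In the SLC6 family 3 of 7 tested genes rose, 3 fell and 1 did not pass, against 27.3% higher and 26.5% lower over all tested genes. SLC6A6 (ENSG00000131389.17), the taurine carrier, had 95.9, 93.0 and 94.3 CPM in parental and 201, 204 and 205 CPM in resistant libraries. Replicates lay close together and the groups far apart. The rise was 2.15-fold (edgeR adjusted p = 1.3e-09, log2 fold change 1.11 with an SE of 0.04). SLC6A9 (ENSG00000196517.11), the glycine carrier GlyT1, had 7.89, 7.74 and 6.52 CPM in parental and 15.9, 14.8 and 16.0 CPM in resistant libraries. It rose 2.09-fold, also without overlap (edgeR adjusted p = 1.2e-06, log2 fold change 1.06 with an SE of 0.09). SLC6A16, an orphan member with 20 to 60 counts per library, rose by 0.89 on the log2 scale (edgeR adjusted p = 0.0044).

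SLC6A20 (ENSG00000163817.16), the proline carrier of gut and kidney, had 2.33, 2.05 and 1.68 CPM in parental and 0.763, 0.684 and 0.655 CPM in resistant libraries. The counts were 33 to 63 in the parental and 17 to 20 in the resistant libraries, which did not overlap. It fell 2.89-fold (edgeR adjusted p = 8.1e-05, log2 fold change -1.53 with an SE of 0.21). SLC6A8 (ENSG00000130821.16), the creatine carrier, fell 1.30-fold from 133 ± 4.41 CPM to 102 ± 2.44 CPM (SD, n = 3; edgeR adjusted p = 2.8e-05). A close copy, SLC6A10P, had at most 2.48% of the SLC6A8 count, and the division of reads between them is uncertain. SLC6A17, a vesicle carrier of neutral amino acids in neurons, fell by 0.50 on the log2 scale (edgeR adjusted p = 3.6e-05). The serotonin carrier SLC6A4, with 2 to 18 counts per library, did not pass (edgeR adjusted p = 0.47). SLC6A12 and SLC6A13, carriers of GABA and betaine, had 2 to 11 counts per library and missed the filter of the main test.

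Among cationic amino acid carriers SLC7A1 and SLC7A2 had small differences, unlike the scarce SLC7A9 above. SLC7A1, the arginine and lysine carrier CAT1, had 210 ± 6.19 CPM in parental and 204 ± 2.79 CPM in resistant libraries (SD, n = 3; edgeR adjusted p = 0.44). SLC7A2, the related carrier CAT2, fell 1.18-fold, 31.8 ± 1.87 CPM becoming 26.8 ± 1.27 CPM (edgeR adjusted p = 0.0077). The SLC7A2 call was lost with library sizes alone (edgeR adjusted p = 0.079) and on FPKM (limma adjusted p of 0.17 to 0.24), with its alternatives between 5.6e-04 and 0.24. SLC43A3, known as a carrier of purine nucleobases rather than amino acids, fell 1.31-fold, 38.6 ± 1.29 CPM becoming 29.5 ± 1.15 CPM (edgeR adjusted p = 1.3e-04).

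Of the lysosomal and less studied members SLC38A6 and SLC36A1 rose, and SLC38A9, SLC36A4 and SLC38A10 did not pass the threshold. SLC38A9, the lysosomal carrier that reports arginine to the kinase complex mTORC1, had 17.6 ± 1.10 CPM and 17.8 ± 1.27 CPM (SD, n = 3; edgeR adjusted p = 0.84). SLC36A1, a proton-coupled carrier of lysosomes, had 17.9, 20.5 and 20.01 CPM in parental and 21.2, 23.6 and 21.8 CPM in resistant libraries. Its rise of 1.14-fold lay just past the threshold (edgeR adjusted p = 0.037) and lost it in 10 of 17 alternatives, with adjusted p-values from 0.0041 to 0.19. Among these were the fits without parental replicate 1 or 3 and without resistant replicate 2 or 3, at adjusted p-values of 0.19, 0.064, 0.14 and 0.068. SLC36A4 and SLC38A10 did not pass (edgeR adjusted p = 0.62 and 0.15). SLC38A6, whose substrates are less well known, rose 1.68-fold, with 3.53 ± 0.499 CPM in parental and 5.99 ± 0.469 CPM in resistant libraries (edgeR adjusted p = 5.7e-04).

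**Figure D4:**
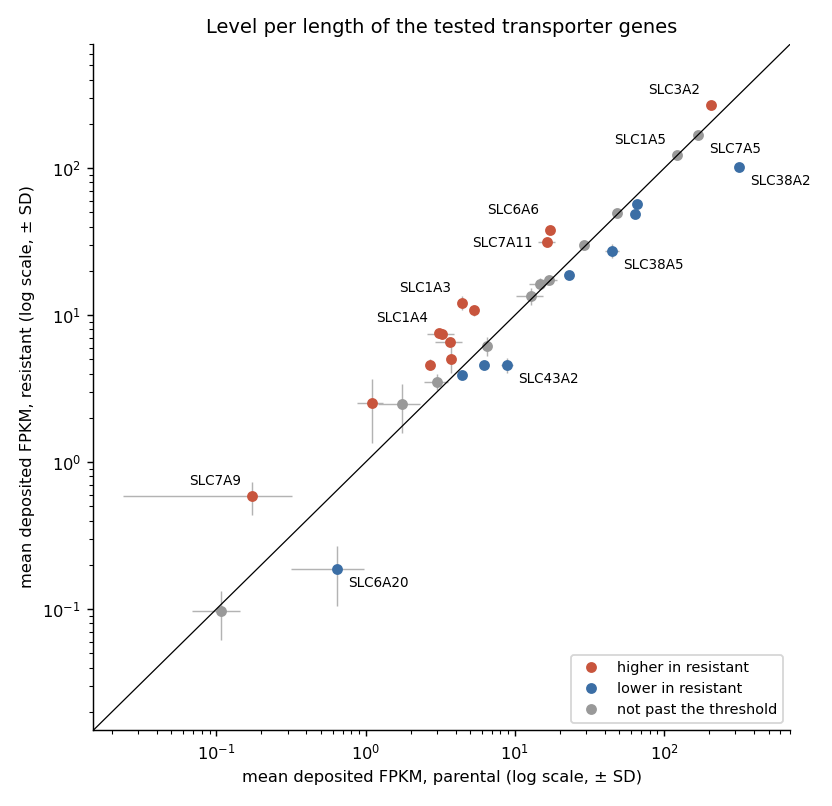
Mean deposited FPKM of the 32 tested members in parental (x) and resistant (y) libraries on log scales, with SD (n = 3) and the line of equal level. Colours give the edgeR call as higher (red), lower (blue) or not past the threshold (grey). SLC38A2 lies farthest below the line among the abundant genes, and SLC3A2, SLC7A11, SLC6A6, SLC1A3 and SLC1A4 lie above it.

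The order of levels per length changed at the top. In the parental libraries SLC38A2 led with 317 ± 12.7 FPKM, before SLC3A2 (205 ± 9.99), SLC7A5 (169 ± 7.61) and SLC1A5 (121 ± 3.98 FPKM; SD, n = 3). In the resistant libraries SLC3A2 led with 271 ± 9.83 FPKM, before SLC7A5 (168 ± 3.48), SLC1A5 (123 ± 5.32) and SLC38A2 (102 ± 3.07 FPKM). Neighbours within these leading groups differed by more than their SD. Further down, SLC38A1 and SLC6A8, at 65.7 ± 2.46 FPKM and 64.1 ± 2.10 FPKM in the parental libraries, did not differ beyond their spread. SLC7A11 moved from rank 13 to rank 9 and SLC6A6 from rank 11 to rank 8, while SLC43A2 moved from rank 16 to rank 25. At least 10 FPKM was reached by 15 members in the parental and 17 in the resistant libraries, and at least 1 FPKM by 29 in each.

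The other 17 members had 1 to 12 counts over all libraries. Among them were SLC3A1, SLC6A19, SLC7A3, SLC7A10, SLC36A2 and SLC38A4. Many of the 17 are known from neurons, kidney or liver. At this depth a difference between the forms was not detectable for them.

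Genes that use or sense the carried amino acids were counted from lists of their own. Over all tested genes 27.3% were higher and 26.5% lower, the background for the count of each list. CHAC1, ASNS and SESN2, all higher, each stand in the ATF4 list below and in another list, so they are counted in both. Of 13 tested genes of cystine use and glutathione synthesis 7 rose, 2 fell and 4 did not pass, with a median log2 fold change of 0.47. For TXNRD1, which encodes thioredoxin reductase, the rise was 2.06-fold, 895 ± 21.2 CPM becoming 1848 ± 7.33 CPM (SD, n = 3; edgeR adjusted p = 2.5e-09). The glutathione genes GSR and GCLC rose by 1.17 and 1.06 on the log2 scale. CD44, a surface glycoprotein known to stabilise SLC7A11, fell 1.77-fold, 736 ± 19.3 CPM becoming 416 ± 7.14 CPM (edgeR adjusted p = 1.7e-08).

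Of 15 tested genes of glutamine, glutamate and asparagine use 2 rose, 8 fell and 5 did not pass, with a median log2 fold change of -0.13. GLUL, the glutamine synthetase gene, fell 1.72-fold from 162 ± 5.92 CPM to 94.6 ± 2.24 CPM (SD, n = 3; edgeR adjusted p = 6.3e-08), and PYCR1 of proline synthesis fell 1.25-fold. ASNS, the asparagine synthetase gene, rose 1.59-fold and the alanine transaminase gene GPT2 rose 1.66-fold. In branched chain amino acid breakdown 3 of 10 tested genes rose, 3 fell and 4 did not pass. Both shares were near those over all tested genes, 27.3% higher and 26.5% lower. BCKDHA and BCKDHB, which encode paired subunits of the branched chain ketoacid dehydrogenase, had log2 fold changes of -0.58 and 0.73, while its kinase gene BCKDK and IVD of leucine breakdown fell by 0.39 and 0.41.

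Of 24 tested genes of amino acid sensing by mTORC1 7 rose, 7 fell and 10 did not pass. These counts too were near the 27.3% higher and 26.5% lower over all tested genes. The sestrins, of which SESN2 binds leucine, rose together, SESN3 3.71-fold, SESN2 2.002-fold and SESN1 1.43-fold. NPRL3, a subunit of the inhibitory GATOR1 complex, fell 1.57-fold. A further list held ATF4, the transcription factor of the amino acid response, and genes of that response. It had 15 of 20 tested genes higher, 3 lower and 2 not past the threshold, with a median log2 fold change of 0.55. ATF4 itself rose 1.14-fold with overlapping CPM of the groups (edgeR adjusted p = 0.031). The kinase gene EIF2AK4 was among the 3 lower genes, with a log2 fold change of -0.19. DDIT3, the stress factor CHOP, rose 2.51-fold and STC2 1.64-fold, beside SESN2 and ASNS. Some members are also known as ATF4 targets, and they did not move together. SLC1A4, SLC6A9, SLC7A11 and SLC3A2 had log2 fold changes of 1.22, 1.06, 0.86 and 0.32, and SLC38A2 had -1.64. SLC7A5, SLC7A1 and SLC1A5, at -0.10, -0.04 and -0.05, did not pass the threshold.

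Amino acid carriers of other families had 2 of 17 tested genes higher, 6 lower and 9 not past the threshold, with a median log2 fold change of -0.08. Those named here work in mitochondria. The serine carrier SFXN1 fell 1.65-fold from 196 ± 8.55 CPM to 119 ± 5.67 CPM (SD, n = 3; edgeR adjusted p = 3.1e-07). The ornithine carrier SLC25A15 and the glutamate carrier SLC25A22 fell 1.55-fold and 1.32-fold, and the basic amino acid carrier SLC25A29 rose 1.56-fold. The shares of higher and lower calls over all tested genes, 27.3% and 26.5%, are the background for these counts.

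**Figure D5:**
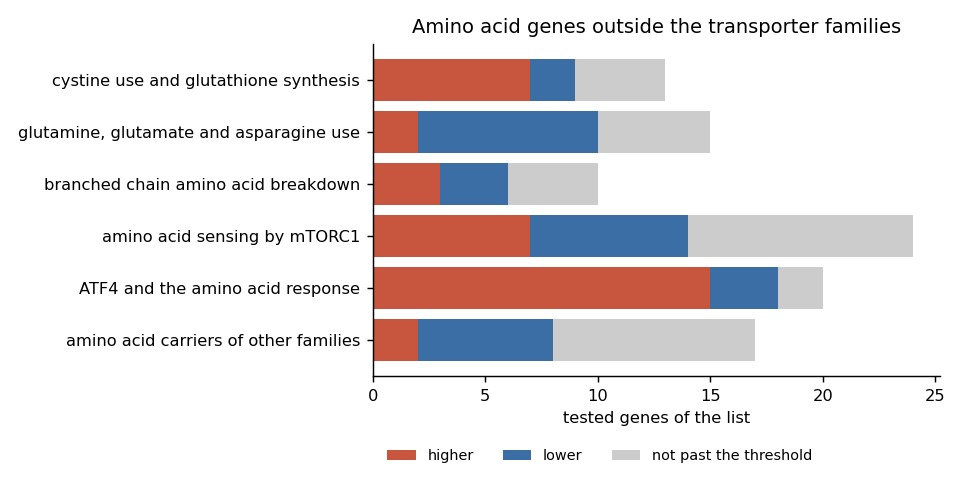
Number of tested genes that were higher, lower or not past the threshold (edgeR adjusted p under 0.05) in 6 lists of genes that use, sense or carry amino acids outside the transporter families. The ATF4 list had 15 of 20 genes higher, and the glutamine use list 8 of 15 lower. Over all tested genes 27.3% were higher and 26.5% lower. CHAC1, ASNS and SESN2 are counted in the ATF4 list and in another list.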

How the data were processed

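RNA sequencing libraries of HCT116 cells, 3 parental and 3 resistant, were prepared with a SMARTER mRNA-Seq kit according to the labels' protocols. One table deposited by the authors holds raw whole-number counts of reads per gene. A second table deposited by the authors was taken as FPKM, an inference from its values, and served for levels between genes and in alternatives. For the aligner, annotation and strand setting the sources used here give nothing. The submitters' processing notes name mouse genome builds, which the human identifiers do not match, so that reference served for nothing here and neither coordinates nor sequences are printed.

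Groups and replicate numbers come from the sample titles, and columns were assigned through the sample descriptions. The test was edgeR 4.0.16 in R 4.3.3 (TMM, filterByExpr, robust quasi-likelihood fit, two-sided) over all genes, Benjamini-Hochberg adjusted, at a threshold of 0.05. Each SE is the absolute log2 fold change over the root of its F statistic. Alternatives used limma 3.58.1 and DESeq2 1.42.0. The edgeR fit was tested on simulated data.

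Members, lists and tests were chosen with earlier results of these data known. Members with 30 or more counts that carry cystine, glutamine or large neutral amino acids, and others called with at least a 2-fold change, are given in full. From each further list up to 4 called genes with the smallest adjusted p are named, though not all with full values. Marker genes, close copies and antisense neighbours, and members outside these groups, were named after their values were seen. List genes without a row (SLC7A13, SLC6A14, CASTOR2, SLC66A1 and the endothelial marker PECAM1) were not analysed here. Some members with few counts are counted in the text but not reported here by name.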

Additional observations from a re-analysis of the deposited data

How the results depend on the processing

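The members called higher numbered 9 to 12 and those called lower 7 to 10 under all 17 alternatives. Leaving out one library at a time gave 11 to 12 higher and 9 lower members. Over all genes the lower calls moved from 4399 to 2804, 2807 and 2157 with limma on FPKM (pseudocount 0.1, pseudocount 1, and pseudocount 1 without a filter), and the cause was not tested. Of 542 comparisons of a tested member with an alternative, 495 kept direction and side of the threshold, 17 lost the call, 1 gained it and 29 changed sign, all of these for members not past the threshold. With library sizes alone the sign turned for SLC1A5 (0.045), SLC7A1 (0.053), SLC7A6 (0.038), SLC38A3 (0.034), SLC38A7 (0.038) and SLC38A10 (0.0068), on the log2 scale. On FPKM, in the 3 settings above, it turned for SLC1A5 (0.026, 0.026 and 0.026), SLC6A4 (-0.072, -0.013 and -0.013), SLC7A1 (0.055, 0.053 and 0.053), SLC7A6 (0.050, 0.048 and 0.048), SLC38A3 (0.46, 0.32 and 0.32) and SLC38A10 (0.033, 0.033 and 0.033). Leaving out one library gave -0.049 to 0.15 for SLC36A4, -0.14 to 0.045 for SLC38A3 and -0.031 to 0.077 for SLC38A9. The calls lost were those of SLC36A1, SLC7A2, SLC7A9, SLC6A16 and SLC6A20, the last 2 on FPKM without a filter (limma adjusted p = 0.11 and 0.12). With the replicate number as a block 12 members were higher and 10 lower, and 5010 and 4963 genes in all. Libraries of the same number deviated together with correlations of 0.074, 0.14 and 0.010, against -0.15 to 0.094 for libraries of differing number. The deviations were taken from the means of groups of 3, so the correlations cannot settle whether the numbers pair the samples. Members with under 30 counts are limited by depth.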
